A study of Bos taurus with 22 samples.

Results

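The striated muscle genes TTN, NEB, ALPK2 and ALPK3 were read in subcutaneous fat of 22 steers, picked as a readout of muscle RNA. They did not rise and fall together over the steers, so they are described 1 by 1. Their identifiers are TTN (ENSBTAG00000026986), NEB (ENSBTAG00000006907), ALPK2 (ENSBTAG00000014284) and ALPK3 (ENSBTAG00000001618), which are 4 of the 24616 genes in the count table, and they were picked by name for their link to muscle. All 4 had been called between RFI groups by the study in the Kinsella composite steers used here, so their values in those steers are not independent evidence, whereas the Angus and Charolais steers did not pick them. The series is RNA-seq of backfat taken after slaughter from cattle with high or low residual feed intake after adjustment for backfat (RFIfat, kg), where a low value marks a steer that ate less than its growth, size and fat would predict. Each breed was split into steers of high (H-RFI) and low (L-RFI) RFIfat, and the comparison asks whether gene expression in fat differs with feed efficiency. Angus (ANG) has 4 steers in each RFI group, Charolais (CHAR) has 3 in each, and Kinsella composite (KC) has 4 in each. The labels give KC as a cross of Hereford and Angus, and by the study's methods its sires were Angus, Charolais or another composite and its dam line was mainly Hereford and Angus with some Holstein, so KC may share ancestry with both other breeds. RFIfat was 0.75 to 1.64 kg in H-RFI and -1.13 to -0.75 kg in L-RFI steers of ANG, 0.69 to 1.1 and -1.03 to -0.96 kg in CHAR, and 0.54 to 2.03 and -1.77 to -0.8 kg in KC. The labels give neither age nor sequencing lane for a steer, and each library is 1 piece of tissue from 1 animal.

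Striated muscle is built of sarcomeres, in which thick filaments of myosin slide along thin filaments of actin between Z-discs. Titin, the product of TTN, spans from the Z-disc to the middle of the sarcomere and acts as a spring, and nebulin, the product of NEB, lies along the thin filaments of skeletal muscle. ALPK2 and ALPK3 belong to the alpha kinase family, and both are best known from the heart. Backfat lies over skeletal muscle, and adipocytes have no sarcomeres. In bulk tissue, fewer cells of a type and less RNA per cell cannot be told apart.

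Between 8033008 and 12426133 reads were counted on genes per steer (median 9803200). Levels are given as CPM (reads of a gene over all gene reads of the steer, with TMM scaling), a scale that does not correct for gene length, so levels are compared between steers and not between genes. A floor of 3 counts stood at 0.241 to 0.373 CPM before TMM scaling, which covers counting error only. One library stood apart in TTN and NEB, that of the KC L-RFI steer F11, and results that rest on it are given with and without it. F11 was unremarkable in depth (10822339 counts, rank 5 of 22), in its TMM factor of 0.978 within a range of 0.916 to 1.07, in reads outside genes as a share of uniquely placed reads (60.8%, within 57.1 to 63.5%) and in genes above 1 CPM (13636, within 13449 to 13761).

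Genes that were at least 1 CPM in 1 steer and over 5-fold higher there than in each of the other 21 numbered 30 in F11, against 0 to 3 in the others (median 1). F11 was singled out, and all these limits were chosen, after the data were seen. With limits of 2-fold, 3-fold and 10-fold F11 had 48, 36 and 18 such genes, and the others had at most 30, 7 and 1. TTN and NEB were among the 30 and were the 2 of them with a name in the table of symbols, while ALPK2 and ALPK3 were not among them. TTN was 8.74-fold and NEB 27.9-fold higher in F11 than in the next steer. The other 28 genes summed to 519 CPM in F11 and to 5.44 to 19.9 CPM elsewhere (median 8.69), and 19 of the 28 were at or below 1 CPM in each of the other steers. ENSBTAG00000018204 was at 139.8 CPM in F11 and at most at 2.50 elsewhere, and ENSBTAG00000046332 was at 73.5 and at most at 1.44. After F11, the summed level was highest in F1 (19.9 CPM, KC H-RFI) and F16 (16.1 CPM, KC L-RFI). These genes were picked by their level in F11, so their height there is a description, and all 30 took 0.301% of the reads counted on genes in F11, of which TTN alone took 0.231%.

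**Figure D1:**
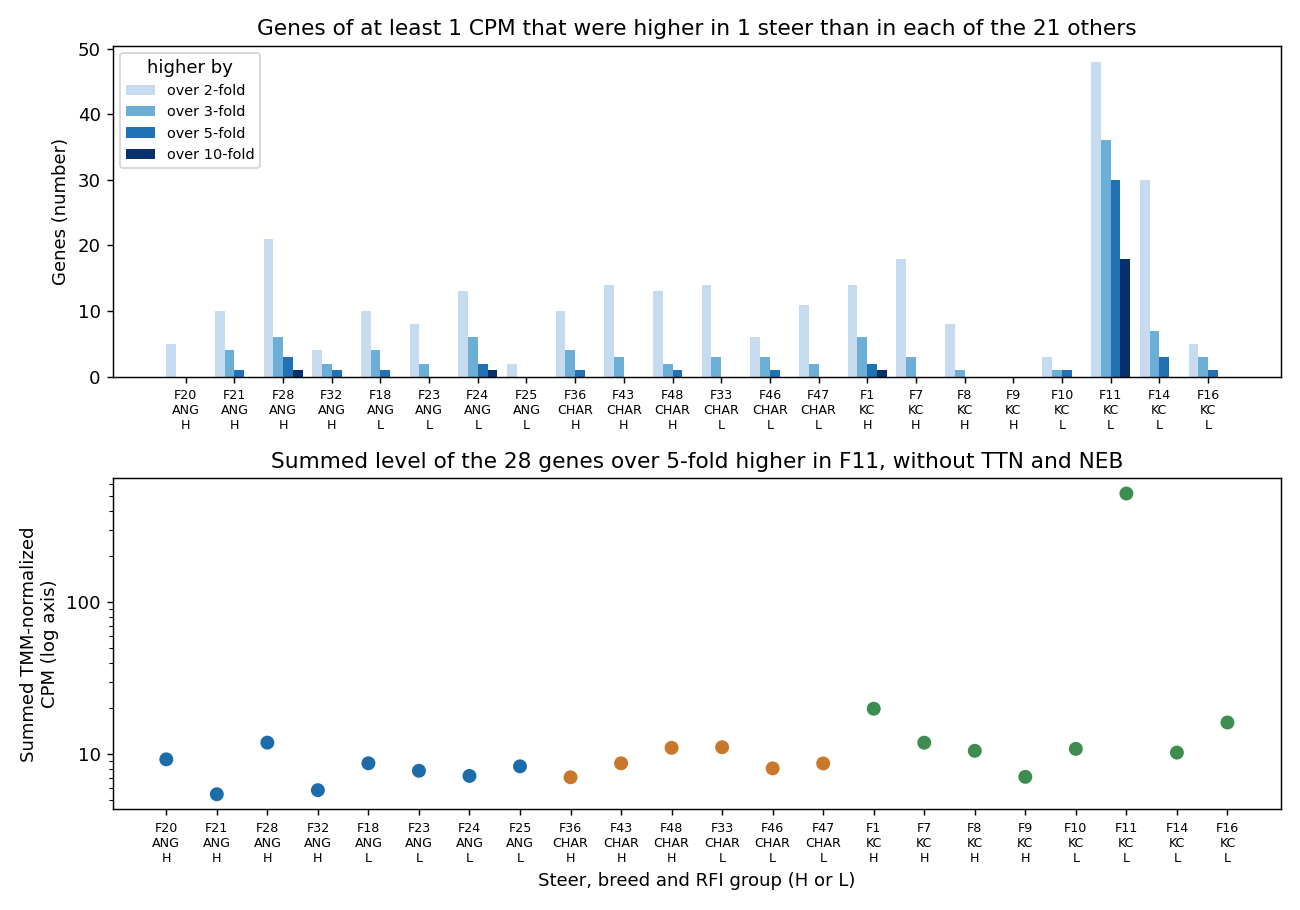
Top, number of genes of at least 1 CPM that were over 2, 3, 5 or 10-fold higher in 1 steer than in each of the other 21, by steer. Bottom, summed TMM-normalized CPM (log axis) of the 28 genes over 5-fold higher in F11 other than TTN and NEB. F11 reached 519 CPM, and the other steers lay between 5.44 and 19.9 CPM.

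TTN, the spring of the sarcomere, was read in all steers, with 413 to 2814 counts in 21 of them and 24994 in F11. In ANG it was at 55.2, 104, 158 and 217 CPM in the H-RFI steers F20, F21, F28 and F32 and at 49.4, 78.7, 125 and 149.7 CPM in the L-RFI steers F24, F18, F23 and F25. In CHAR it was at 58.1, 72.2 and 145 CPM in the H-RFI steers F48, F36 and F43 and at 84.3, 137 and 147 CPM in the L-RFI steers F33, F46 and F47. In KC it was at 63.9, 87.4, 123 and 270.2 CPM in the H-RFI steers F8, F9, F7 and F1 and at 80.4, 93.5, 253 and 2362 CPM in the L-RFI steers F10, F16, F14 and F11. The groups overlapped in every breed, and apart from F11 the steers spread over a 5.47-fold range with no breed or RFI group outside the range of the others. Ordered by their medians, the groups ran from 72.2 CPM in CHAR H-RFI over 102 in ANG L-RFI, 105 in KC H-RFI, 131 in ANG H-RFI and 137 in CHAR L-RFI to 173 in KC L-RFI, and each pair of neighbours in that order overlapped. Without F11 the median of KC L-RFI was 93.5 CPM, the second lowest. RefSeq (assembly ARS-UCD2.0) has 2 genes without a name of their own that overlap TTN, and since the strand setting of the counting is not given, counts of TTN are uncertain there.

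NEB, which lines the thin filament, rested on 8 to 63 counts outside F11 and on 2126 in F11. In ANG it was at 3.92, 4.10, 2.66 and 2.60 CPM in F20, F21, F28 and F32 (H-RFI) and at 6.22, 3.05, 2.86 and 1.14 CPM in F24, F18, F23 and F25 (L-RFI). In CHAR it was at 4.68, 1.23 and 1.17 CPM in F48, F36 and F43 (H-RFI) and at 4.43, 0.962 and 6.39 CPM in F33, F46 and F47 (L-RFI). In KC it was at 0.743, 3.54, 1.05 and 6.05 CPM in F8, F9, F7 and F1 (H-RFI) and at 4.96, 2.90, 7.21 and 200.9 CPM in F10, F16, F14 and F11 (L-RFI). The RFI groups overlapped in every breed, and the highest steer after F11 was F14 of the same group. Group medians ran from 1.23 CPM in CHAR H-RFI over 2.29 in KC H-RFI, 2.96 in ANG L-RFI, 3.29 in ANG H-RFI and 4.43 in CHAR L-RFI to 6.09 in KC L-RFI (4.96 without F11), with each group overlapping its neighbours. Counting error alone was wide at the low end, since the 8 counts of F8 have an exact 95% Poisson interval of 3.45 to 15.8. NEB overlaps 1 long non-coding gene in the RefSeq annotation and is uncertain there.

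**Figure D2:**
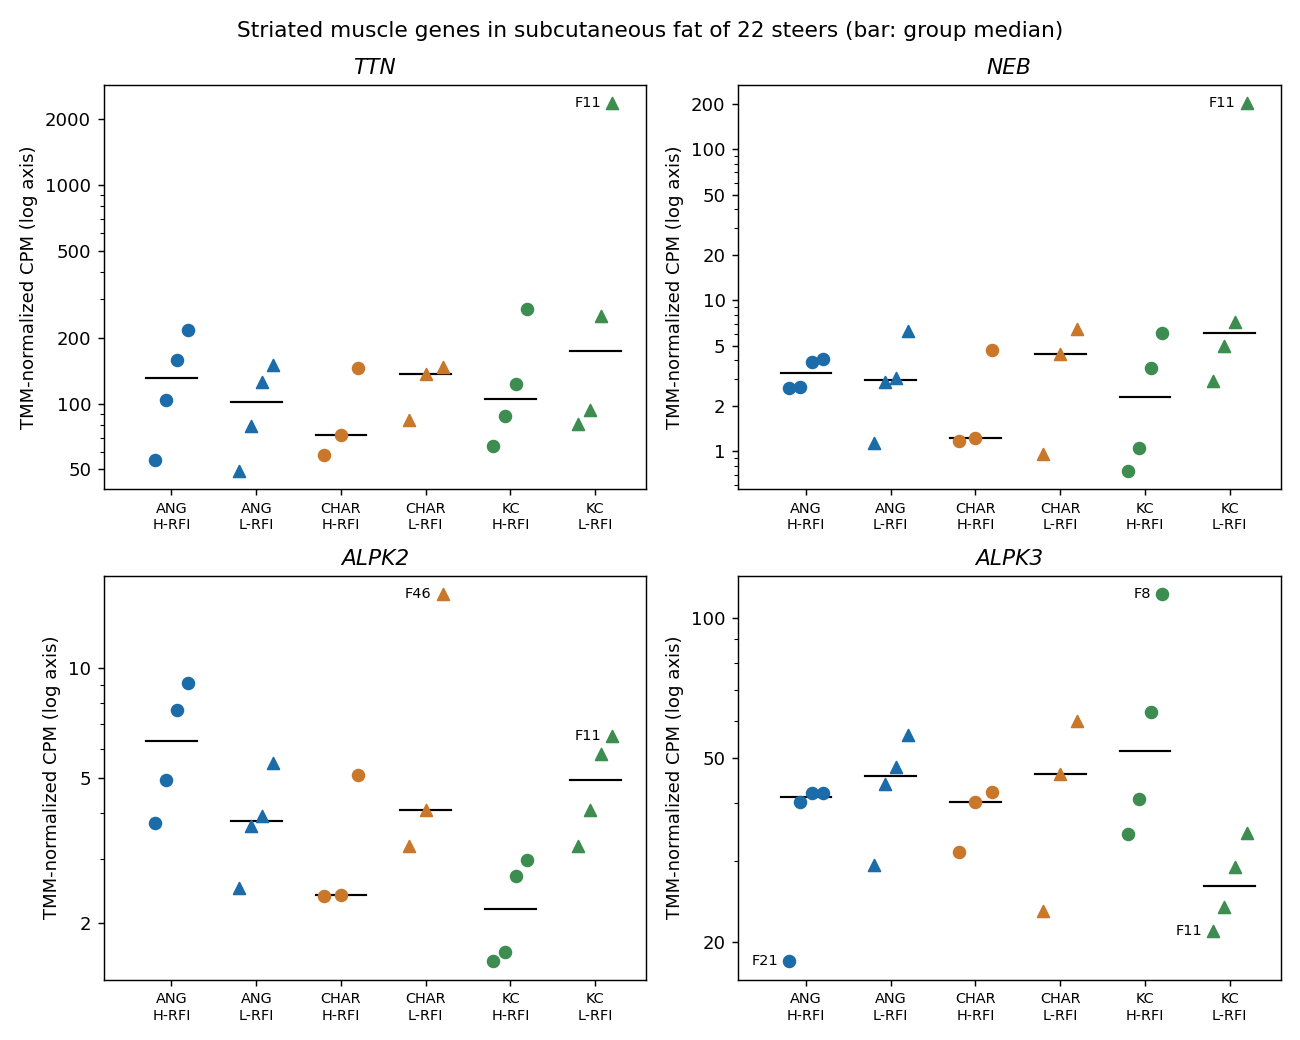
TMM-normalized CPM (log axis) of TTN, NEB, ALPK2 and ALPK3 in each of the 22 steers, by breed and RFI group, with the median of each group as a bar. F11 is far above the other steers for TTN (2362 CPM) and NEB (200.9 CPM) and is among the lowest for ALPK3 (21.2 CPM).

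The ratio of TTN to NEB counts was not the same in all steers. It was 11.8 in F11 and ran from 7.94 in F24 to 142 in F46 over the other 21 steers (median 35.1), so F11 had the second lowest ratio of all. By group, the median ratio was 42.2 in ANG H-RFI, 34.7 in ANG L-RFI, 58.9 in CHAR H-RFI, 23.02 in CHAR L-RFI, 65.3 in KC H-RFI and 24.2 in KC L-RFI, with overlap between the RFI groups of each breed. Over the 22 steers, Pearson's r of log2(CPM + 1) between TTN and NEB was 0.72 and Spearman's rho 0.10. Without F11 the values were 0.04 and -0.04 (21 steers), and without F11 and F1, the 2 steers farthest from the median of TTN, r was -0.08. The correlation thus rested on F11, and it is given as a description of steers that share a tissue and a count table. Over the 21 other steers the summed level of the 28 genes had an r of 0.18 with TTN and of 0.15 with NEB. The 28 genes were picked by their level in F11, and as few as 9 of them had any count in another steer. These r values therefore cannot tell whether they vary with TTN or NEB.

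**Figure D3:**
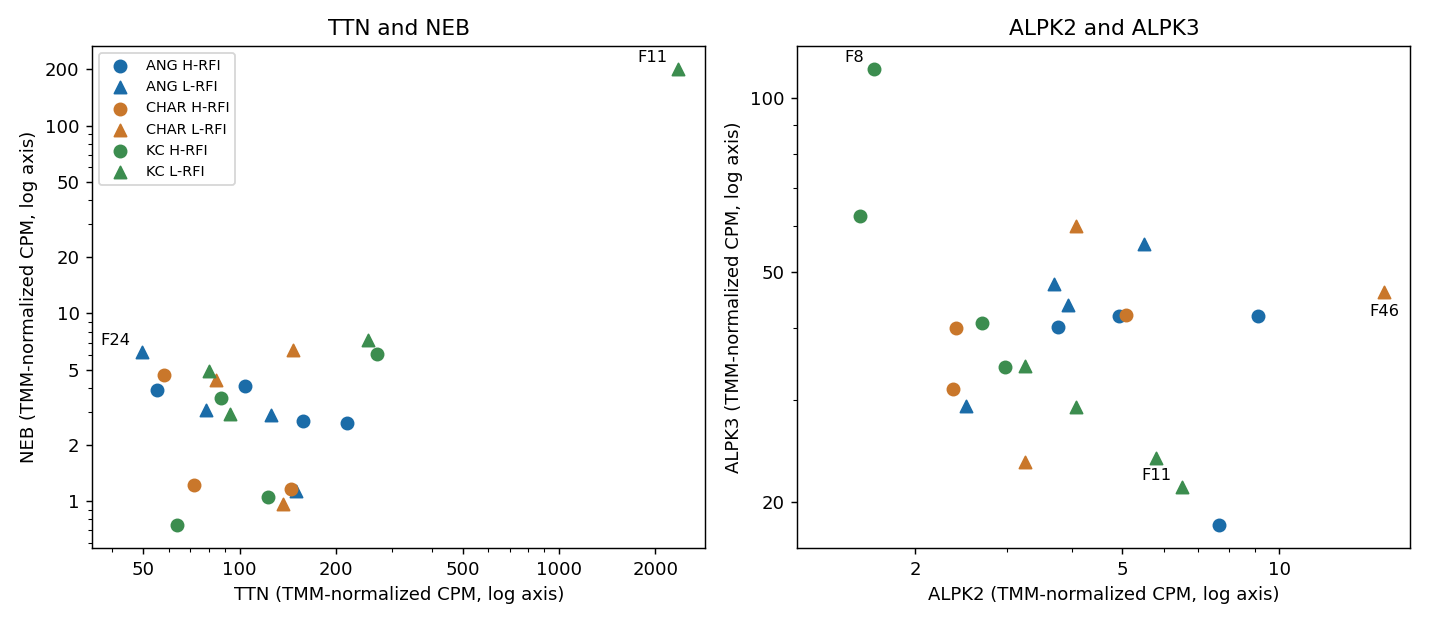
Left, NEB against TTN, and right, ALPK3 against ALPK2, in TMM-normalized CPM on log axes, 1 point per steer. On the left F11 lies alone at the upper right and the other 21 steers had an r of 0.04, and on the right the steers with the highest ALPK2 (F46) and the highest ALPK3 (F8) are different animals.

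In KC the mean of TTN was 136 ± 92.6 CPM over H-RFI and 697 ± 1113 CPM over L-RFI steers (SD, 4 steers a group), and the log2FC was 2.37 (standard error, SE, 1.02; quasi-likelihood test in edgeR, adjusted p = 0.255). NEB was at 2.84 ± 2.48 and 54.0 ± 98.0 CPM, with a log2FC of 4.26 (SE 1.38; edgeR, adjusted p = 0.168). Calls needed a change of log2FC by 1 or more in either direction with an FDR below 0.1, and none of the 4 genes was called in KC, where 1 of 13725 genes (0.00729%) was. Without F11 the L-RFI steers were at 142 ± 96.1 CPM for TTN and 5.03 ± 2.16 CPM for NEB (n = 3), and the log2FC was 0.08 (SE 0.53, adjusted p = 0.961) and 0.83 (SE 0.64, adjusted p = 0.545). Without F11 the quasi-likelihood test called 54 of 13621 genes (0.396%) in KC, none of them among the 4, and the gene called with F11 was 1 of the 54. By the exact permutation test of single values (2-sided, unadjusted, smallest possible p 0.0286), p was 0.486 for TTN and 0.143 for NEB in KC, and 0.914 and 0.257 without F11.

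The exact test of edgeR gave a different count in KC, since it called all 4 genes among 177 called (1.29% of genes tested), with an adjusted p of 0.0837 for TTN, 0.0113 for NEB, 0.0637 for ALPK2 and 0.0112 for ALPK3. Over the alternative settings the adjusted p ran from 0.0837 to 0.274 for TTN, 0.0113 to 0.173 for NEB, 0.0358 to 0.173 for ALPK2 and 0.0112 to 0.146 for ALPK3. Without F11 the exact test called 197 genes (1.45%), with ALPK3 (adjusted p = 0.0429) the member left among them, while TTN was at 0.974, NEB at 0.551 and ALPK2 at 0.170. DESeq2 called 165 genes (1.2%), ALPK2 and ALPK3 among them, and gave no p for TTN and NEB, which were among 10 genes left without one. These counts include genes that had been called on the same steers.

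ALPK2 encodes an alpha kinase, and its counts ran from 18 to 182 over the steers. ALPK2 in ANG stood at 9.10, 7.65, 4.92 and 3.76 CPM in F20, F21, F28 and F32 (H-RFI) and at 5.50, 3.70, 3.94 and 2.50 CPM in F24, F18, F23 and F25 (L-RFI). In CHAR it was at 2.39, 2.37 and 5.09 CPM in F48, F36 and F43 (H-RFI) and at 4.08, 15.9 and 3.25 CPM in F33, F46 and F47 (L-RFI). In KC it was at 1.67, 2.98, 1.57 and 2.69 CPM in F8, F9, F7 and F1 (H-RFI) and at 4.08, 5.80, 3.25 and 6.52 CPM in F10, F16, F14 and F11 (L-RFI). The KC groups did not overlap, with the L-RFI steers higher, whereas the groups overlapped in ANG and in CHAR, where F46 was the highest of all 22 steers. ALPK2 was the 1 gene of the 4 without overlap in KC, where 10.8% of the genes tested had groups that did not overlap, and it was not raised to the extent of TTN and NEB in F11 (rank 4 of 22). Its level in KC was 2.23 ± 0.709 CPM in H-RFI and 4.91 ± 1.51 CPM in L-RFI steers (SD, 4 steers a group), which gave a log2FC of 1.14 (SE 0.32; edgeR, adjusted p = 0.143; exact permutation test, p = 0.0286). Without F11 the log2FC was 0.98 (SE 0.34, adjusted p = 0.205; exact permutation test, p = 0.0571) and the groups did not overlap, as in 16.7% of the genes tested on these 7 steers. Group medians ran from 2.18 CPM in KC H-RFI over 2.39 in CHAR H-RFI, 3.82 in ANG L-RFI, 4.08 in CHAR L-RFI and 4.94 in KC L-RFI (4.08 without F11) to 6.29 in ANG H-RFI, with overlap of neighbours throughout. RefSeq has 1 long non-coding gene that overlaps ALPK2, which makes its counts uncertain.

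ALPK3, the other alpha kinase, had counts of 164 to 1210 over the steers. ALPK3 in ANG stood at 41.96, 18.2, 41.9 and 40.2 CPM in F20, F21, F28 and F32 (H-RFI) and at 55.8, 47.6, 43.8 and 29.3 CPM in F24, F18, F23 and F25 (L-RFI). In CHAR it was at 40.03, 31.3 and 42.2 CPM in F48, F36 and F43 (H-RFI) and at 60.02, 46.1 and 23.4 CPM in F33, F46 and F47 (L-RFI). In KC it was at 112, 34.2, 62.5 and 40.7 CPM in F8, F9, F7 and F1 (H-RFI) and at 29.1, 23.8, 34.4 and 21.2 CPM in F10, F16, F14 and F11 (L-RFI). F8 was the highest and F21 the lowest of all steers, F11 ranked 21 of 22, and the KC groups overlapped through F9 and F14. The level in KC was 62.5 ± 35.5 CPM in H-RFI and 27.1 ± 5.87 CPM in L-RFI steers (SD, 4 steers a group), which gave a log2FC of -1.20 (SE 0.34; edgeR, adjusted p = 0.144; exact permutation test, p = 0.0571). Without F11 the log2FC was -1.09 (SE 0.38, adjusted p = 0.204; exact permutation test, p = 0.143), and without F8 it was -0.76. Group medians ran from 26.5 CPM in KC L-RFI (29.1 without F11) over 40.03 in CHAR H-RFI, 41.05 in ANG H-RFI, 45.7 in ANG L-RFI and 46.1 in CHAR L-RFI to 51.6 in KC H-RFI, and neighbours overlapped throughout. No RefSeq gene overlaps ALPK3.

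**Figure D4:**
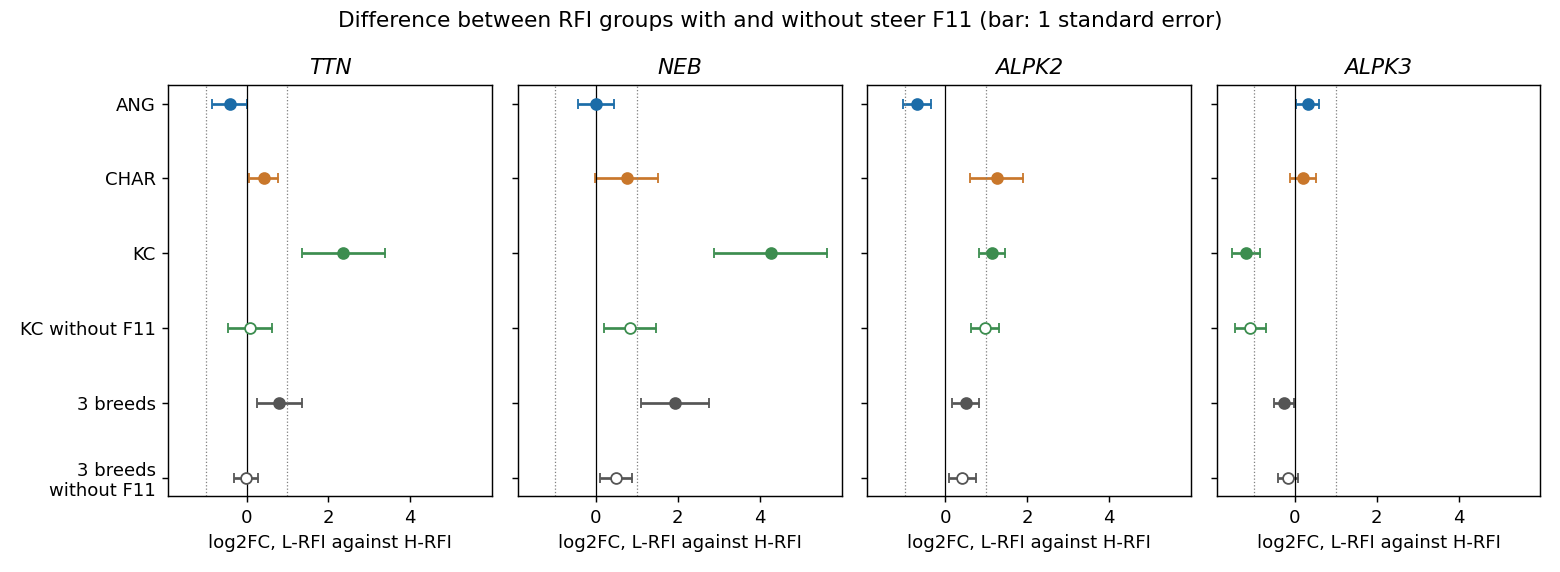
log2FC of L-RFI against H-RFI with 1 standard error for the 4 genes in ANG, CHAR and KC and over the 3 breeds, with open points for the fits without F11. The dotted lines mark a log2FC of 1 in either direction. In KC, leaving out F11 moved TTN from 2.37 to 0.08 and NEB from 4.26 to 0.83, and ALPK2 from 1.14 to 0.98 and ALPK3 from -1.20 to -1.09.

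In ANG and CHAR no gene was called by the quasi-likelihood test (0% of 13613 and 0% of 13737 genes), so none of the 4 was. In ANG, 686 genes had an unadjusted p under 0.05, and the exact test of edgeR called 46 genes (0.338%) and DESeq2 32. In CHAR, 636 genes had an unadjusted p under 0.05, and the exact test called 39 genes (0.284%) and DESeq2 23. None of the 4 genes was called by these tests in either breed. The log2FC in ANG was -0.41 for TTN, -0.0025 for NEB, -0.70 for ALPK2 and 0.31 for ALPK3, and in CHAR it was 0.42, 0.75, 1.25 and 0.19 in the same order, with edgeR's adjusted p from 0.948 to 0.9997 over both breeds. None of the 4 had groups without overlap in ANG or CHAR, where 2.86% and 10.3% of the genes tested did. By the exact permutation test of single values p was 0.171 to 0.771 in ANG and 0.3 to 0.8 in CHAR, where 3 against 3 steers cannot give a p below 0.1. The log2FC of 1.25 for ALPK2 in CHAR was 0.17 without F46.

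Over the 3 breeds, with breed as a covariate, no gene was called between L-RFI and H-RFI (0% of 14048 genes; 2105 with an unadjusted p under 0.05, and 23 called by DESeq2). The log2FC was 0.80 for TTN, 1.92 for NEB, 0.50 for ALPK2 and -0.27 for ALPK3, with adjusted p from 0.285 to 0.651, and without F11 it was -0.02, 0.49, 0.41 and -0.17, with adjusted p from 0.630 to 0.992 (edgeR). ALPK2 was at 0.19 without F46, and ALPK3 was at -0.08 without F8. The breed by RFI interaction passed an FDR below 0.1 in 1 gene (0.00712%), which was none of the 4, whose adjusted p was 0.667 to 0.708 with F11 and 0.596 to 0.901 without it.

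Between breeds, with RFI group as a covariate, none of the 4 genes was called by the quasi-likelihood test, where 26 of 14048 genes (0.185%) were called for CHAR against ANG, 57 (0.406%) for KC against ANG and 246 (1.75%) for CHAR against KC. Without F11 it called 29, 96 and 282 genes in the same order, and again none of the 4. For KC against ANG the log2FC was 1.49 for TTN (adjusted p = 0.212) and 2.31 for NEB (adjusted p = 0.177), and for CHAR against KC it was -1.72 (adjusted p = 0.121) and -2.56 (adjusted p = 0.109), all from edgeR. Without F11 the values were 0.25 and 0.16 for KC against ANG and -0.37 and -0.30 for CHAR against KC (adjusted p from 0.557 to 0.861, edgeR), so the size of both rested on F11. DESeq2 called 282 genes (2.01%) for CHAR against KC, TTN among them (adjusted p = 0.0655, with 0.0655 to 0.121 over the alternatives). ALPK2 had a log2FC of -0.65 for KC against ANG (-0.77 without F11) and of 0.63 for CHAR against KC (0.77 without F11, and -0.0011 without F46). ALPK3 had 0.10 for KC against ANG (0.22 without F11, and -0.19 without F8) and -0.08 for CHAR against KC (-0.20 without F11, and 0.21 without F8).

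The 10 genes most like TTN and the 10 most like NEB over the 22 steers, by Pearson's r of log2(CPM + 1) among 13742 genes with a mean of at least 1 CPM, had r of 0.72 to 0.86 and 0.76 to 0.87. Of these 10, 9 were in both cases among the 28 genes high in F11, and none had a name in the table of symbols. The named genes below were taken from further down these orders after seeing them, and so were those most like a gene without F11. Without F11 the r of the 10 ran from -0.06 to 0.53 for TTN and -0.33 to 0.51 for NEB. Most of these genes were low in the other steers, which limits these r values too. Among the genes with a name, NEB ranked 11 for TTN and TTN ranked 12 for NEB, and SIRPB1, a receptor of myeloid cells, came next for TTN (rank 26, r = 0.60) and was the most like TTN without F11 (rank 5, r = 0.69). SESN1, a stress-induced sestrin, came next for NEB (rank 78, r = 0.56) with 0.27 without F11, where KCNT2, a potassium channel gene, was the named gene most like NEB (rank 4, r = 0.72).

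Over the 22 steers Pearson's r was 0.13 between TTN and ALPK2, -0.39 between TTN and ALPK3, 0.20 between NEB and ALPK2, -0.45 between NEB and ALPK3 and -0.30 between the kinases, and -0.06, -0.23, 0.07, -0.36 and -0.25 without F11. Leaving out other steers moved some of these r values too. TTN and ALPK2 had an r of 0.22 without F20, and NEB and ALPK2 of 0.42 without F46. Between the kinases r was -0.45 without F46 and -0.14 without F8. The 5 genes most like ALPK2 had r of 0.77 to 0.81 with F11 and 0.77 to 0.87 without it, and the 5 most like ALPK3 had 0.69 to 0.72 and 0.66 to 0.68, and none of these 10 genes had a name in the table. The named genes most like ALPK2 were LOC616618 (r = 0.73), SLC10A6 (0.69), a transporter of sulfated steroids, and TLR5 (0.67), the receptor of flagellin, and those most like ALPK3 were CYB5D2 (0.61) and UTP4 (0.56), which acts in ribosome assembly. Names were at hand for 242 of the 24616 genes, from a list of genes called in this study, so a named gene high in these orders is one of a small set.

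Other muscle genes could be read for few symbols, since 6 of 82 genes in 7 lists of sarcomere, calcium, energy and myogenic genes could be matched, TTN and NEB included. The 4 others were TPM2, a tropomyosin of the thin filament, DES, the intermediate filament of muscle, CHRNA1, a subunit of the acetylcholine receptor, and COX8B, a muscle form of cytochrome oxidase. F11 ranked 3 of 22 for TPM2 (83.9 CPM, highest 119.9), 14 for DES (48.9 CPM, highest 315), 14 for CHRNA1 (4.35 CPM, highest 15.0) and 3 for COX8B (17.1 CPM, highest 33.1). Their summed level was 154 CPM in F11 within a range of 77.8 to 447 CPM (median 127). These genes did not stand apart in F11 as TTN and NEB did, and none was at 0 counts in any steer. TPM2 and DES had at least 357 and 269 counts in every steer, so a small addition in F11 would not show in them. Whether these 4 genes follow skeletal muscle RNA in this tissue was not tested. FHOD3, a formin of the sarcomere that was added after its values were seen, ranked 16 in F11 (6.62 CPM). Myosin, actin and troponin genes of skeletal muscle and the myogenic factors were in the lists and could not be matched here.

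The steer with the highest TPM2, DES, ACTA2 and ACTG2 was F33 (CHAR L-RFI). The summed level of the smooth muscle genes ACTA2, ACTG2 and KCNMB1 was 396 CPM in F33 and 197 CPM in F11 (median 165). TTN was at 84.3 CPM and NEB at 4.43 CPM in F33, inside the range of the other steers. The quasi-likelihood test called none of the 7 matched genes of striated and smooth muscle besides TTN and NEB in any of the 7 comparisons, with the lowest adjusted p of 0.121 for CHRNA1 in CHAR against KC. Between RFI groups, the exact test of edgeR called none of the 7 in ANG, 6 in CHAR (5 higher in L-RFI, and COX8B lower) and CHRNA1 in KC, and DESeq2 called 0, 5 and 1. These 7 genes have a symbol here because the study called them between RFI groups on these steers, so nothing is read from these counts. The tissue is labelled as adipocytes, and none of 10 listed adipocyte genes could be matched, so this label could not be checked on them. CIDEA and G0S2, lipid droplet genes added after their values were seen, were at 19.0 to 111 and 14.4 to 416 CPM, with F11 at 48.1 and 82.7 CPM, rank 12 of 22 for each. No listed gene of endothelium, fibroblasts, macrophages, epidermis or heart could be matched either. What share of the TTN and NEB reads in F11 comes from muscle tissue was not tested.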

How the data were processed

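Total RNA of backfat was depleted of ribosomal RNA and sequenced as stranded paired reads. The authors aligned to UMD3.1 with TopHat2 2.0.9, used SAMtools 1.1, and counted with HTSeq 0.6.1. The annotation release and strand setting are not given in the sources used here. The deposited values are raw counts per gene, 1 column per steer, and all 22 columns were used. Labels name each steer separately. The 5 summary lines of the counter (reads outside genes, ambiguous or not unique), 70.9 to 77.2% of a column, were kept out of library sizes.

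edgeR 4.0.16 (limma 3.58.1, R 4.3.3) with TMM factors and the quasi-likelihood test was run within breeds on genes above 1 CPM in at least 50% of the steers, and over 22 steers on genes passing in at least 1 breed. Called genes had a log2FC of 1 or more in size and an FDR (Benjamini and Hochberg) under 0.1. The interaction used the FDR alone. edgeR's quasi-likelihood test gives no SE, so the SE here is the size of the log2FC divided by the square root of the F statistic. Alternatives were RLE factors, DESeq2 1.42.0, edgeR's exact test with common and tagwise dispersions, other filters, a fit of 6 groups and leaving out each steer. The fits were tested on simulated data with the same spread for all genes and no outlying steer, which does not cover a library such as F11. Tables and figures came from matplotlib 3.10.9, scipy 1.17.1, pandas 2.3.3 and numpy 2.4.6 under python 3.11.15. Named genes were the 4 genes, those most like them over steers and the matched genes of the lists (muscle, alpha kinase, cardiac, smooth muscle, adipocyte, endothelium, fibroblast, macrophage, epidermis) for the 242 identifiers that a table of the study pairs with a symbol. Fits of the interaction and of edgeR's exact test without F11, the share of genes without overlap in KC without F11, other tests of list genes, the scan of genes high in F11 and the correlations without 2 steers were added after seeing the data, and so were FHOD3, CIDEA, G0S2 and the named genes beyond the first 10 or 5 in likeness. The genes and lists were chosen with earlier results of these data known. RefSeq of another build served for overlaps only.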

Additional observations from a re-analysis of the deposited data

Results flagged for a closer look

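In 3 cases a value lay far from the rest of its group of 4 steers, by the gap to the nearest steer divided by the range of the group (limit 0.829). They were TTN in F11 (KC L-RFI, 2362 CPM, 0.924 of the range), NEB in F11 (200.9 CPM, 0.978) and, at the low end, ALPK3 in F21 (ANG H-RFI, 18.2 CPM, 0.925). The 4 genes and the TTN to NEB ratio were tested in 4 groups each, 20 in all. The limit is meant to mark about 1 in 20 groups of normal values by chance, and whether these values are normal was not checked. The groups share steers and the ratio is built from TTN and NEB, so they are not separate trials. The CHAR groups of 3 steers were not compared in this way.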

How the results depend on the processing

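Of 109 values of log2FC of the 4 genes under other settings, 100 kept their sign and their side of the threshold, none changed sign, and 9 passed the threshold that the quasi-likelihood test had not reached. In KC these were the log2FC with the exact test of edgeR for TTN (2.36), NEB (4.25), ALPK2 (1.14) and ALPK3 (-1.20), with DESeq2 for ALPK2 (1.15) and ALPK3 (-1.20), and in 1 fit of 6 groups for NEB (4.24, adjusted p = 0.0615) and ALPK3 (-1.20, adjusted p = 0.0807). The last was TTN in CHAR against KC with DESeq2 (-1.72, adjusted p = 0.0655, against 0.121 with edgeR). The number of genes called was 0 in ANG against 32 (DESeq2) and 46 (exact test), 0 in CHAR against 23, 39 and 1 (6 groups), 1 in KC against 165, 177 and 108, and 0 over the 3 breeds against 23 with DESeq2. It was 26 for CHAR against ANG, 86 with DESeq2 and 16 with CPM above 1 in every steer, and with that filter 26 in place of 57 for KC against ANG and 112 in place of 246 for CHAR against KC. NEB had no value under that filter except within ANG and CHAR, and DESeq2 gave no p for NEB outside these, nor for TTN in KC. The cause of these shifts was not tested. Leaving out each steer, 404 of 440 log2FC values kept their sign and their side of the threshold, 27 changed sign and 9 passed the threshold, and among the 404 were TTN in KC, at 0.08 without F11 against 2.37, and NEB in KC, at 0.83 against 4.26. The range in ANG was -0.67 to -0.07 for TTN, -0.91 to -0.47 for ALPK2 and 0.09 to 0.46 for ALPK3, in CHAR 0.18 to 0.91 for TTN, 0.22 to 1.70 for NEB and 0.17 to 1.69 for ALPK2, and over the 3 breeds 0.49 to 2.24 for NEB, 0.19 to 0.63 for ALPK2 and -0.37 to -0.08 for ALPK3. The number called ran from 0 to 1 in ANG and in CHAR, 0 to 54 in KC (highest without F11), 0 to 34 over the 3 breeds (highest without F28), 6 to 54 for CHAR against ANG, 24 to 101 for KC against ANG (both highest without F32) and 171 to 323 for CHAR against KC. Sign changes were in NEB in ANG (-0.49 to 0.28), ALPK3 in CHAR (-0.13 to 0.49), TTN over the 3 breeds (-0.0155 to 0.97), in CHAR against ANG TTN (-0.53 to 0.0538), NEB (-0.83 to 0.0511), ALPK2 (-0.58 to 0.17) and ALPK3 (-0.18 to 0.14), ALPK3 in KC against ANG (-0.19 to 0.22), and in CHAR against KC ALPK2 (-0.0011 to 0.77) and ALPK3 (-0.26 to 0.21). In CHAR against KC the range was -1.95 to -0.37 for TTN, called without F8, F10 or F16, and -3.02 to -0.30 for NEB, called without F7, F8, F10, F14, F16 or F48, and both were nearest 0 without F11. The r of TTN and NEB ran from 0.0411 (without F11) to 0.77. The count of genes over 5-fold higher in F11, 30, was 48 at 2-fold, 36 at 3-fold, 18 at 10-fold and 21 at a minimum of 5 CPM, limits chosen after seeing the data. Depth limits NEB and ALPK2 most, at 8 and 18 counts in their lowest steers.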
